A study of Mus musculus with 4 samples.

Results

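The genes described here are 10 members of the BMP and stem cell factor (SCF) signalling routes that support stress erythropoiesis: the ligand genes Bmp4, Kitl and Gdf15, the SMAD genes Smad1, Smad5, Smad6 and Smad7, and the target genes Id1, Id2 and Id3. They were taken by symbol, matched through the Ensembl identifier, from a table of 23763 genes, and 10 of 10 had a row and reached the mean of 1 that was set for testing, as did 16970 genes in all. The table came from RNA sequencing of mouse spleen after depletion of ribosomal RNA, with directional libraries, and held 2 libraries of KLHL3 knock-in (KLHL3-KI) mice and 2 of wild-type (WT) mice. All were C57BL/6J spleens at baseline, with no other treatment given. KLHL3 is the substrate adaptor of a cullin-3 ubiquitin ligase that acts on WNK kinases; the knocked-in allele, the cells that carry it, and how old the mice were and of which sex, are not stated in the labels. Nothing in the labels says that libraries of a group came from separate animals, so p-values measure only the spread between these libraries, which may be technical.

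In mice, the spleen can take up red cell production when the bone marrow does not meet demand. BMP4, made by splenic stromal cells and macrophages, acts through type I and type II receptor kinases on SMAD1 and SMAD5, which join SMAD4 and switch on genes such as those of the ID proteins. SMAD6 and SMAD7 are themselves induced by this signal and turn it off again. SCF, the product of Kitl, acts on the receptor KIT of progenitors, mast cells and other cells, and GDF15 has been placed in mouse stress erythropoiesis as a factor that helps splenic progenitors to expand.

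Kitl was the member that rose in KLHL3-KI spleen, while Id3 and Smad7 fell. Bmp4, Gdf15, Smad1, Smad5, Smad6, Id1 and Id2 did not pass the test. Calls were made at a Benjamini-Hochberg adjusted p under 0.05 over all tested genes, with limma on log2(value + 1). The 1 rise and 2 falls among 10 members stand against 15.2% of all tested genes called higher and 7.56% called lower, or 22.8% called in either direction. In 2 members both KLHL3-KI values lay above both WT values and in 4 both lay below, against 32.8% and 31.9% of all tested genes; the groups did not overlap for 64.7% of them. The median log2 fold change (KLHL3-KI minus WT) of the 10 was -0.11, beside -0.01 for all tested genes. All values below are scaled read counts, the table's reads divided by 1 factor per library, and means are given ± SD (n = 2 in each group). Log2 fold changes are on the log2(value + 1) scale, which understates changes of low genes. In whole spleen, a higher or lower value cannot tell more or fewer cells of a type from more or less RNA per cell.

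**Figure D1:**
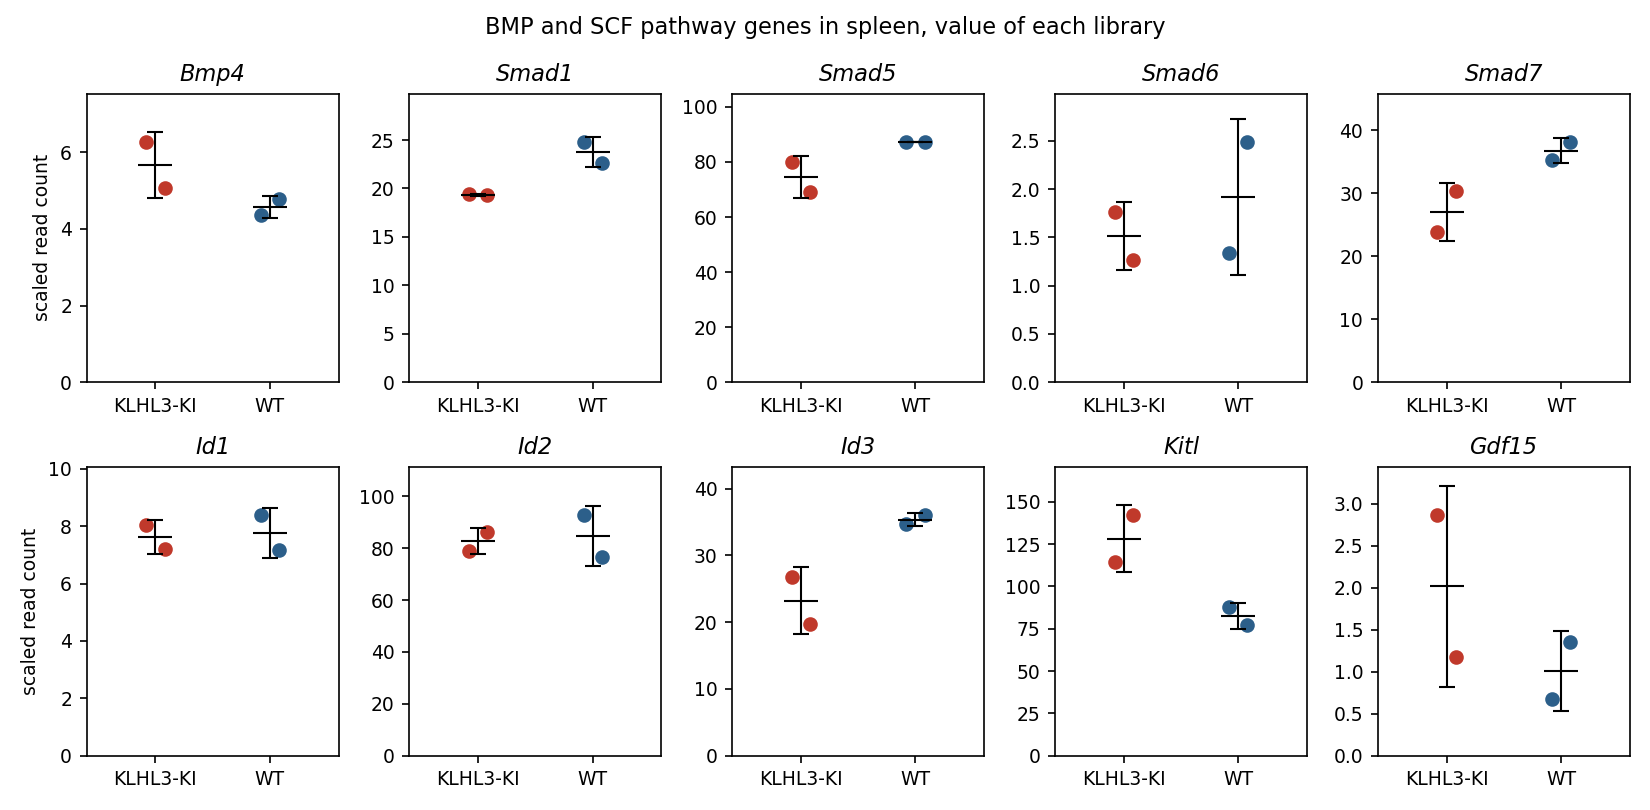
Scaled read count (vertical axis, from 0, different in each panel) of the 10 genes in each library, KLHL3-KI on the left and WT on the right; points are libraries, the bar is the mean and the whiskers are the SD (n = 2 per group). Both KLHL3-KI points of Kitl lie above both WT points, those of Id3 and Smad7 lie below, and those of Id1, Id2, Smad6 and Gdf15 overlap.

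Among the ligands, Kitl (ENSMUSG00000019966) had 114 and 142 scaled reads in KLHL3-KI replicates 1 and 2, against 88.0 and 77.2 in WT replicates 1 and 2. Its groups did not overlap, and the higher KLHL3-KI value was in replicate 2. The means were 128 ± 19.7 in KLHL3-KI and 82.6 ± 7.65 in WT spleen (SD, n = 2 each), a ratio of 1.55 and a log2 fold change of 0.62 (SE 0.12, 95% interval 0.35 to 0.90, limma adjusted p = 0.00600). These values rested on 1038 and 1460 reads in KLHL3-KI and 787 and 744 in WT libraries. Of all tested genes, 10.8% had a larger log2 fold change. Kitl was not called without WT replicate 2 (limma adjusted p = 0.0904) or without a variance trend (0.0570), and the log2 fold change ran from 0.47 to 0.78 with 1 library left out. The table counts whole genes, so splice forms of Kitl are not separated, nor are the membrane-bound and soluble forms of SCF.

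Bmp4 (ENSMUSG00000021835), the ligand that gives splenic stress progenitors their BMP signal, had 6.28 and 5.06 scaled reads in KLHL3-KI against 4.36 and 4.77 in WT libraries. Both KLHL3-KI values were the higher ones, by less than the test could call: the log2 fold change was 0.26 (SE 0.19, 95% interval -0.18 to 0.69, limma adjusted p = 0.381). It was 0.12 without KLHL3-KI replicate 1 and 0.39 without KLHL3-KI replicate 2, and passed in neither case. Bmp4 rested on 57 and 52 reads in KLHL3-KI and 39 and 46 reads in WT libraries.

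Gdf15 (ENSMUSG00000038508), a distant member of the TGF-beta family, rested on few reads, with 26 and 12 reads in KLHL3-KI and 6 and 13 reads in WT libraries. Its scaled values were 2.86 and 1.17 in KLHL3-KI against 0.671 and 1.35 in WT spleen. KLHL3-KI replicate 1 stood above the other libraries and KLHL3-KI replicate 2 lay between the WT values. The exact Poisson 95% intervals, which cover counting error only, were 1.87 to 4.20 and 0.604 to 2.04 in KLHL3-KI and 0.246 to 1.46 and 0.718 to 2.31 in WT libraries. The log2 fold change of 0.55 (SE 0.33, 95% interval -0.19 to 1.28) did not pass (limma adjusted p = 0.263). It was 0.13 without KLHL3-KI replicate 1 and 0.96 without KLHL3-KI replicate 2, where it passed (limma adjusted p = 0.0476), and 0.30 without WT replicate 1.

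The receptor-activated SMADs lay lower in both KLHL3-KI libraries without passing. Smad1 (ENSMUSG00000031681) had 19.4 and 19.3 scaled reads in KLHL3-KI against 24.8 and 22.6 in WT spleen, with a log2 fold change of -0.28 (SE 0.13, 95% interval -0.56 to 0.00099, limma adjusted p = 0.142). Smad5 (ENSMUSG00000021540), the BMP SMAD whose mutation in flexed-tail mice impairs the splenic response to anaemia, had 80.0 and 69.2 in KLHL3-KI against 87.3 and 87.4 in WT spleen. Its log2 fold change was -0.23 (SE 0.10, 95% interval -0.46 to 0.0049, limma adjusted p = 0.149), and -0.13 without KLHL3-KI replicate 2 (limma adjusted p = 0.574). In both genes the groups did not overlap, and the upper limit of the interval lay just above 0. Both passed as lower under 3 scalings that also shifted the median gene down. With equal total reads per library the median gene stood at -0.16 on the log2 scale, Smad1 at -0.44 and Smad5 at -0.39 (limma adjusted p = 0.0259 and 0.0202).

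Of the inhibitory SMADs, Smad7 fell and Smad6 did not pass. Smad7 (ENSMUSG00000025880), which blocks TGF-beta and BMP receptors, had 23.8 and 30.3 scaled reads in KLHL3-KI libraries and 35.4 and 38.2 in WT libraries. The groups did not overlap and were nearest between KLHL3-KI replicate 2 and WT replicate 1. The means were 27.0 ± 4.60 in KLHL3-KI and 36.8 ± 2.01 in WT spleen (SD, n = 2 each), with a log2 fold change of -0.44 (SE 0.14, 95% interval -0.75 to -0.13, limma adjusted p = 0.0466). The call was lost without KLHL3-KI replicate 1 (log2 fold change -0.27, limma adjusted p = 0.198), without WT replicate 1 (0.136) or 2 (0.254), with no filter on low values (0.0628), without a variance trend (0.118) and with DESeq2 (adjusted p = 0.122). Smad6 (ENSMUSG00000036867), which acts mainly on BMP signals, had 16 and 13 reads in KLHL3-KI and 12 and 24 reads in WT libraries, or 1.76 and 1.27 scaled reads in KLHL3-KI against 1.34 and 2.49 in WT spleen. Its values overlapped and the log2 fold change was -0.19 (SE 0.27, 95% interval -0.81 to 0.42, limma adjusted p = 0.653). Leaving out WT replicate 2, the highest library, turned it to 0.09.

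Of the ID genes, direct targets of BMP SMADs in many cell types, Id3 fell while Id1 and Id2 did not pass. They encode helix-loop-helix proteins without a DNA-binding region that hold E proteins off DNA. Id3 (ENSMUSG00000007872), which is also expressed in B and T lymphocytes, had 26.8 and 19.7 scaled reads in KLHL3-KI against 34.7 and 36.0 in WT libraries. Both KLHL3-KI values were below both WT values, and KLHL3-KI replicate 2 was the lowest. The means were 23.2 ± 5.01 in KLHL3-KI and 35.3 ± 0.944 in WT spleen (SD, n = 2 each), a ratio of 0.657 and a log2 fold change of -0.60 (SE 0.15, 95% interval -0.94 to -0.26, limma adjusted p = 0.0184). Of all tested genes, 4.65% had a lower log2 fold change. The call was lost without KLHL3-KI replicate 2 (log2 fold change -0.39, limma adjusted p = 0.0878), without WT replicate 1 (0.103) or 2 (0.145), and without a variance trend (0.0745).

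Id1 (ENSMUSG00000042745), often read as a sign of BMP signalling in endothelium and liver, had 8.04 and 7.21 scaled reads in KLHL3-KI and 8.39 and 7.16 in WT spleen. The groups overlapped, and the log2 fold change was -0.02 (SE 0.17, 95% interval -0.41 to 0.37, limma adjusted p = 0.941). Id2 (ENSMUSG00000020644), which is needed for NK cells and innate lymphoid cells, had 79.1 and 86.3 in KLHL3-KI and 92.7 and 76.5 in WT spleen. Both KLHL3-KI values lay between the WT values, and the log2 fold change was -0.03 (SE 0.12, 95% interval -0.29 to 0.23, limma adjusted p = 0.889). Whether Id3 differed from Id1 or Id2 in its change was not tested.

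**Figure D2:**
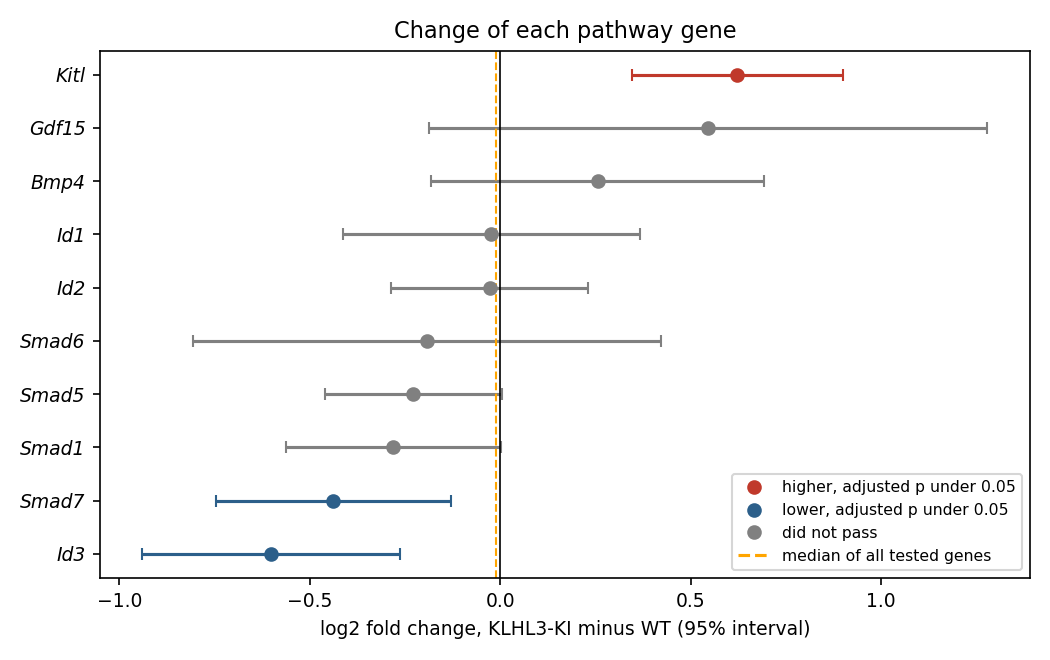
Log2 fold change (KLHL3-KI minus WT, horizontal axis) of each of the 10 genes with its 95% limma interval, ordered by size; the dashed line is the median of all tested genes (-0.01). The intervals of Kitl (0.35 to 0.90), Id3 (-0.94 to -0.26) and Smad7 (-0.75 to -0.13) lie apart from 0, and those of the other 7 genes hold 0.

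Start site sequences are shown for Kitl and Id3, 2 of the 3 called members, and for Id2, an ID gene that did not pass. RefSeq windows of build GRCm38.p6, from 250 bases before to 50 after a start site, were searched for 8 of the members (11 windows). Id1 and Smad7 had no window or were not searched. The windows are read 5′ to 3′ on the gene's strand, and the build differs from the GRCm39 of the expression table. Capitals mark the SMAD box GTCTG (or its complement CAGAC) and the GC-rich BMP SMAD element GGCGCC, both sought on both strands. Id3 is at chr4:136143572-136143871 (plus strand), Kitl at chr10:100015571-100015870 (plus strand) and Id2 at chr12:25096043-25096342 (minus strand).
Id3: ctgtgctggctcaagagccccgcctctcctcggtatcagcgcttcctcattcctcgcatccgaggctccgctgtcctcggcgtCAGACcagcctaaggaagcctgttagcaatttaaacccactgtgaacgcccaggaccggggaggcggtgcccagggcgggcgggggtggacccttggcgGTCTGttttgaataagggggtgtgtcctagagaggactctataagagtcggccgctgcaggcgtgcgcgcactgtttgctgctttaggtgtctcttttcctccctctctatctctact
Kitl: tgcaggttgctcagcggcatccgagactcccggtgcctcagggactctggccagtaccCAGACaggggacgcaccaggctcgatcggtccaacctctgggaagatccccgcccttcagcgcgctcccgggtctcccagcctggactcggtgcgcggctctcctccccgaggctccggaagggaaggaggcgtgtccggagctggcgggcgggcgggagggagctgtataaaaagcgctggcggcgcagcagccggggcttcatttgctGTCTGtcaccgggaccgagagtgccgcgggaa
Id2: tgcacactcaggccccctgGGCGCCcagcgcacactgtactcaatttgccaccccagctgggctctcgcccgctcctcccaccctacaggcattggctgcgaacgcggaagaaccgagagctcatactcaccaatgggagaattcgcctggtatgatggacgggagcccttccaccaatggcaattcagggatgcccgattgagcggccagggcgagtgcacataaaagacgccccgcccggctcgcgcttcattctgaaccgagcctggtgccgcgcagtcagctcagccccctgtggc
GTCTG began 167 and 68 bases before the Id3 start site, and 192 bases before and 18 bases after the Kitl start site. The Id2 window held GGCGCC, beginning 231 bases before the start site, and no GTCTG. Counted by window, GTCTG was in 5 of the 11 windows of the members (those of Id3, Kitl and Gdf15 and 1 of Smad5), and 49.6% of all 32851 windows hold it. GGCGCC was in 3 of the 11 (that of Id2 and overlapping windows of Smad5), against 11.9% of all windows. The overlapping windows of Smad5 hold the same GGCGCC, so this count takes in that site more than once. The GATA motifs AGATAA or TGATAA were in 1 of the 11 (Smad5), against 18.6% of all windows. The windows of 1 gene can overlap, so they are not separate observations. These are matches of letters, not binding sites, and a window without a match says nothing of elements farther away.

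Levels of different members can be set side by side only per length, here per kilobase (kb) of exon in the GENCODE M21 annotation, which need not be the annotation of the table. Id2 was the highest member in both groups, at 33.9 ± 2.09 scaled reads per kb in KLHL3-KI and 34.7 ± 4.71 in WT spleen (SD, n = 2 each). Kitl followed in KLHL3-KI spleen at 21.7 ± 3.33 per kb, and was at 14.0 ± 1.29 in WT spleen. Id3 was at 13.0 ± 2.80 per kb in KLHL3-KI and at 19.7 ± 0.527 in WT spleen, where it stood above Kitl. The libraries of Kitl and Id3 did not overlap in either group, so their order was the opposite in the 2 groups. Smad5 came next at 10.1 ± 1.02 per kb in KLHL3-KI and 11.8 ± 0.0124 in WT spleen. Id1 (6.57 ± 0.508) and Smad7 (5.98 ± 1.02) overlapped in KLHL3-KI spleen, while in WT spleen Smad7 (8.13 ± 0.445) lay above Id1 (6.70 ± 0.749). Smad1 was at 3.09 ± 0.0114 per kb in KLHL3-KI and 3.79 ± 0.250 in WT spleen, and Bmp4 at 2.52 ± 0.382 in KLHL3-KI and 2.03 ± 0.129 in WT spleen. Gdf15 (1.09 ± 0.647 in KLHL3-KI, 0.546 ± 0.259 in WT) and Smad6 (0.472 ± 0.109 in KLHL3-KI, 0.598 ± 0.253 in WT) were the lowest, and overlapped in WT spleen. Kit, whose product is the receptor of SCF, was at 5.88 ± 0.769 per kb in KLHL3-KI and 5.27 ± 0.382 in WT spleen.

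**Figure D3:**
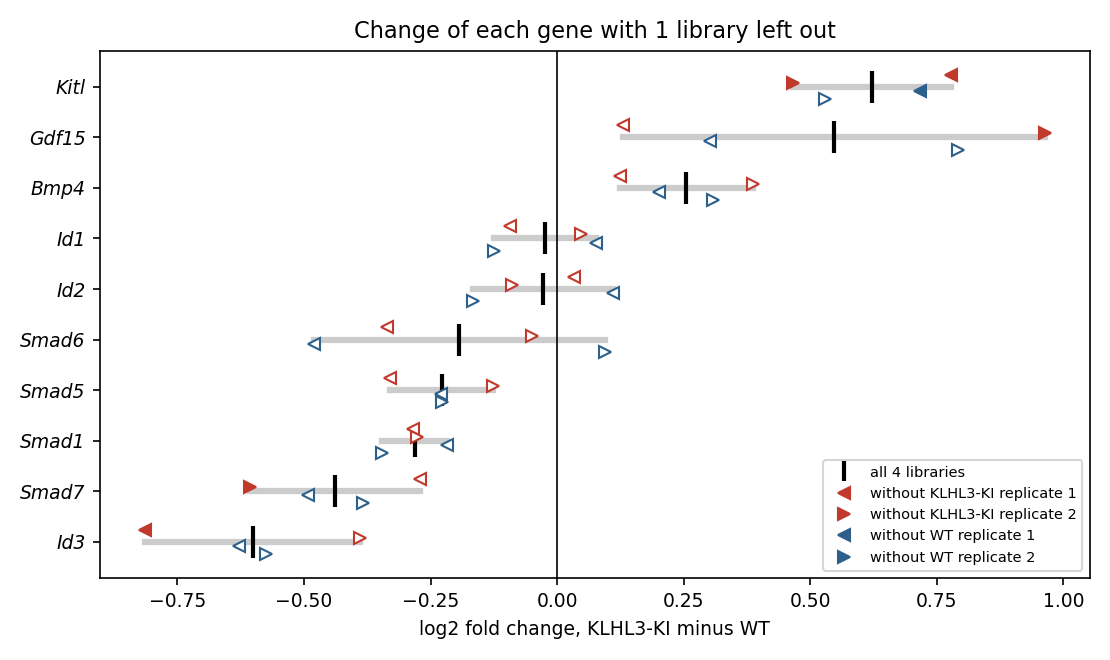
Log2 fold change (KLHL3-KI minus WT, horizontal axis) of each gene with all 4 libraries (black mark) and with 1 library left out (triangles, filled where the limma adjusted p was under 0.05). Kitl runs from 0.47 to 0.78, Id3 from -0.81 to -0.39 and Smad7 from -0.61 to -0.27, without a change of sign, and Smad6, Id1 and Id2 lie on both sides of 0.

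The further genes of these routes were 79 in 7 lists, of which 71 had a row and 68 were tested; 8 rose and 13 fell, with a median log2 fold change of -0.10. Chrd, Fst and Ihh were under the minimum, and Bmp5, Bmp10, Gdf2, Bmpr1b, Hjv, Nog, Epo and Gfral are not analysed here. The lists were read with the same background of 15.2% higher and 7.56% lower. Of these 21 calls, fewest held without a variance trend or with any 1 library but KLHL3-KI replicate 1 left out. With edgeR 19 of the 21 held, with DESeq2 13 (Bmp7, Sostdc1, Crim1, Smad4, Smurf1, Id4, Lyl1 and Ptpn11 were lost) and without a variance trend 5. Tal1, Epor and Tfr2 held with each library left out, joined by Lyl1 and Sh2b3 without KLHL3-KI replicate 2 and by Smurf1 and Sh2b3 without WT replicate 1.

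Of 4 tested BMP family ligands, Bmp7 and Gdf11 fell. Bmp7, known from kidney and bone, was at 0.898 ± 0.443 in KLHL3-KI and 2.84 ± 0.535 in WT spleen (log2 fold change -1.03, SE 0.26, limma adjusted p = 0.0204). Bmp7 rested on few reads, 11 and 6 in KLHL3-KI and 22 and 31 in WT libraries. Its KLHL3-KI mean lay under 1, the minimum set for the mean of all 4 libraries. Gdf11, which acts through activin receptors and has been linked to late erythroid maturation, was at 20.5 ± 4.41 in KLHL3-KI and 32.4 ± 3.54 in WT spleen (log2 fold change -0.65, SE 0.16, limma adjusted p = 0.0172). Bmp2 and Bmp6, which regulate hepcidin in the liver, did not pass, with log2 fold changes of 0.20 and -0.10. The log2 fold changes of the list had a median of -0.38. Without KLHL3-KI replicate 2, WT replicate 1 or WT replicate 2, Bmp7 and Gdf11 were not called.

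None of 9 tested BMP receptor and co-receptor genes passed with limma, and 1 had an unadjusted p under 0.05. With edgeR and with DESeq2 also 0 of them passed, while under 8 of the other settings 1 gene, Rgma, passed as lower, among them equal total reads, the replicate block and the fit without KLHL3-KI replicate 1. The lowest p was that of Rgma, a BMP co-receptor, at 2.41 ± 0.794 in KLHL3-KI and 4.52 ± 0.0649 in WT spleen (log2 fold change -0.71, SE 0.23, limma adjusted p = 0.0519). Among the other receptors the log2 fold changes were -0.38 for the type II receptor gene Acvr2b, -0.17 for the co-receptor gene Rgmb and 0.10 for the type I receptor gene Bmpr1a.

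Of 9 tested BMP antagonists and decoys, Grem1, Sostdc1 and Crim1 fell. Grem1, a secreted BMP trap of stromal cells, was at 3.81 ± 1.94 in KLHL3-KI and 8.71 ± 0.605 in WT spleen (log2 fold change -1.07, SE 0.27, limma adjusted p = 0.0176). Sostdc1 was at 1.50 ± 0.0573 in KLHL3-KI and 3.28 ± 0.0544 in WT spleen, and Crim1, a membrane protein that binds BMPs, at 47.9 ± 3.65 in KLHL3-KI and 62.2 ± 5.38 in WT spleen (limma adjusted p = 0.0301 and 0.0402). Sostdc1 rested on few reads, 14 and 15 in KLHL3-KI and 29 and 32 in WT libraries. The decoy receptor gene Bambi did not pass (log2 fold change -0.62, limma adjusted p = 0.0780). Of these 3 calls, that of Sostdc1 and that of Crim1 were not made with DESeq2. The log2 fold changes of the 9 tested genes had a median of -0.12 and ran from -1.07 to 0.59. In 3 both KLHL3-KI values lay above both WT values and in 4 both lay below, against 32.8% and 31.9% of all tested genes. With limma, 2 genes that did not pass were higher at an unadjusted p under 0.05.

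Of 11 further SMADs and SMAD regulators, 4 fell: Smad4, Smurf1, Ski and Skil. Smad4, the partner shared by BMP and TGF-beta SMADs, was at 55.9 ± 2.96 in KLHL3-KI and 72.5 ± 3.62 in WT spleen (log2 fold change -0.37, SE 0.10, limma adjusted p = 0.0276). Ski and Skil, which repress SMAD targets, had log2 fold changes of -0.42 and -0.37 (limma adjusted p = 0.0177 and 0.0252). Smurf1, a ubiquitin ligase that takes down BMP SMADs, was at 24.5 ± 3.15 in KLHL3-KI and 35.6 ± 5.27 in WT spleen (log2 fold change -0.52, SE 0.14, limma adjusted p = 0.0287). The falls included a carrier of the signal as well as genes that limit it.

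In the list of ID family genes and their partners, 2 of 6 rose and 2 fell. Those that rose were Tal1 and Lyl1, helix-loop-helix factors of blood cells that pair with E proteins and are neither ID nor E proteins. Tal1, a master factor of erythroid cells, was at 218 ± 42.6 in KLHL3-KI and 29.6 ± 5.30 in WT spleen, a ratio of 7.37 (limma adjusted p = 2.65e-06). Lyl1 had a log2 fold change of 0.41 (limma adjusted p = 0.0231). Id4, the last of the ID genes, was at 5.03 ± 1.46 in KLHL3-KI and 8.34 ± 0.243 in WT spleen (log2 fold change -0.65, SE 0.21, limma adjusted p = 0.0496). Tcf4, an E protein gene strongly expressed in plasmacytoid dendritic cells and B cells, had a log2 fold change of -0.30 (limma adjusted p = 0.0423). Id4 was not called with edgeR or DESeq2.

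On the SCF side, Kit did not pass: it had 47.6 and 57.3 scaled reads in KLHL3-KI against 49.3 and 44.5 in WT libraries (log2 fold change 0.15, SE 0.12, 95% interval -0.12 to 0.43, limma adjusted p = 0.404). Kit falls outside the rule for named genes and was named because it encodes the SCF receptor. Of 17 tested genes of KIT and its signalling, 3 rose and 2 fell. The rises were in the adaptor gene Shc1 (log2 fold change 0.45, limma adjusted p = 0.0209), in Spred1, an inhibitor of the RAS route (0.48, adjusted p = 0.0381), and in the phosphatase gene Ptpn11 (0.30, adjusted p = 0.0495). The call of Ptpn11 was lost with edgeR, with DESeq2, with a pseudocount of 0.1 and with no filter, where Spred1 was lost too. The falls were in the phosphatase gene Ptpn6 (-0.43, limma adjusted p = 0.0143) and in Sh2b3 (-0.42, adjusted p = 0.0154), which both dampen cytokine receptor signals. The balance of this list turned with the scaling: 0 rose and 8 fell with equal total reads, 0 and 8 after removal of haemoglobin, immunoglobulin and mitochondrial genes, and 0 and 6 after quantile normalization. Without a variance trend or without WT replicate 2, 0 rose and 0 fell.

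Of 12 other tested stress erythropoiesis genes, Epor, Tfr2 and Erfe rose. The erythropoietin receptor gene Epor was at 61.4 ± 10.3 in KLHL3-KI and 9.51 ± 3.32 in WT spleen, a ratio of 6.45. Tfr2, an iron sensor of erythroid cells and liver, was at 28.9 ± 6.77 in KLHL3-KI and 3.90 ± 0.968 in WT spleen, a ratio of 7.41 (limma adjusted p = 2.12e-05 for Epor and 1.99e-05 for Tfr2). Erfe, the erythroblast hormone that lowers hepcidin, had 5.73 and 12.6 scaled reads in KLHL3-KI against 3.13 and 4.57 in WT libraries, with no overlap and a wide spread in KLHL3-KI (limma adjusted p = 0.0465). The call of Erfe was lost with no filter, equal total reads, quantile normalization, a pseudocount of 5, a robust variance model or no variance trend, and with any library but KLHL3-KI replicate 1 left out. The hedgehog receptor gene Smo did not pass (log2 fold change 0.30, limma adjusted p = 0.212).

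**Figure D4:**
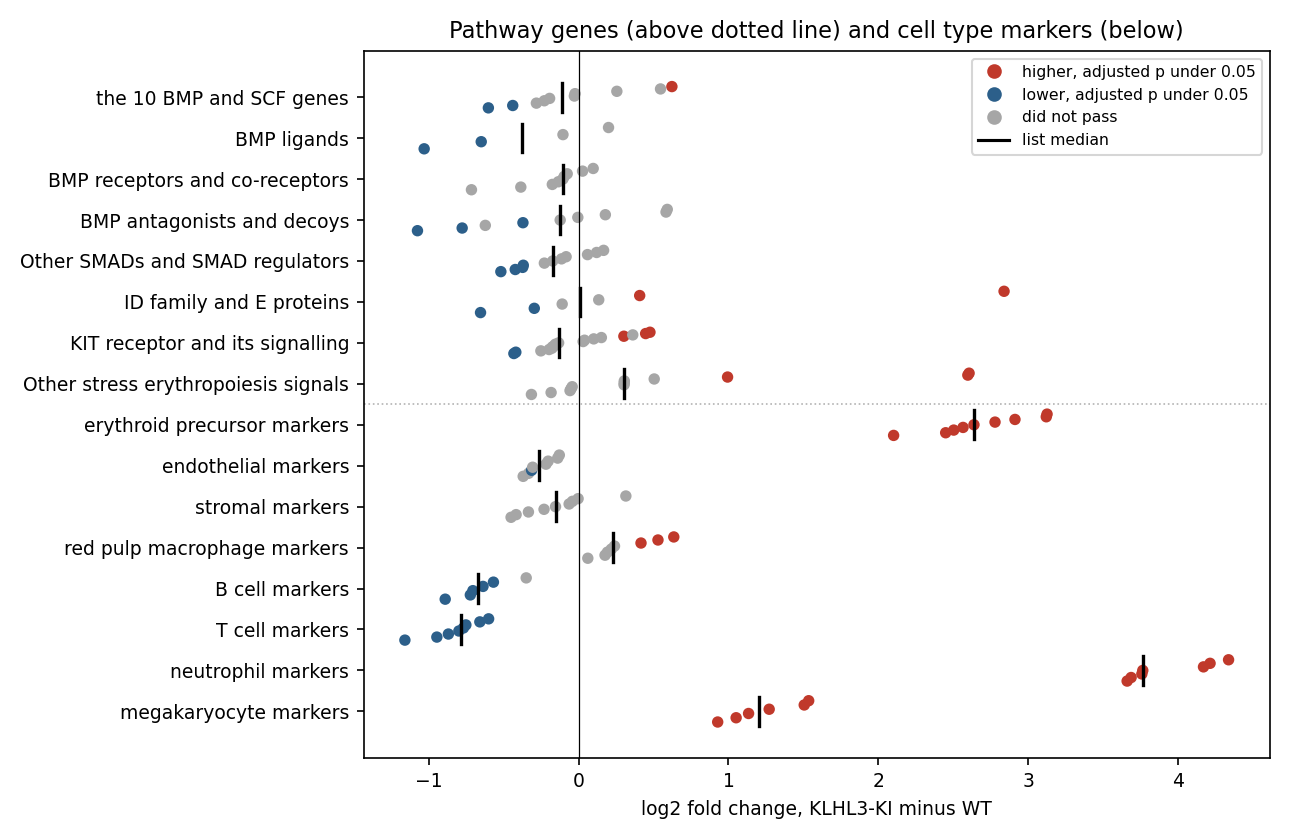
Log2 fold change (KLHL3-KI minus WT, horizontal axis) of every tested gene of the pathway lists (above the dotted line) and of the cell type marker lists (below it); vertical bars are list medians. The 10 members lie between -0.60 and 0.62, while erythroid precursor markers lie between 2.10 and 3.12 and T cell markers between -1.16 and -0.60.

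Markers of several cell types moved between the same libraries. All 9 erythroid precursor markers rose, among them Klf1 and Rhd, with a summed level of 5775 to 6629 in KLHL3-KI and 912 to 1190 in WT libraries, a ratio of 5.90, and 7 of 7 neutrophil markers (S100a9 and S100a8 with the lowest p) and 6 of 6 megakaryocyte markers (Ppbp and Pf4 with the lowest p) rose too. With a robust variance model 4 neutrophil markers passed. The 10 members, for comparison, summed to 362 and 382 in KLHL3-KI against 378 and 354 in WT libraries, a ratio of 1.02. The sum over all genes had a ratio of 1.12. In the member sum, the rise of Kitl and the falls of other members partly offset each other. B cell markers fell in 5 of 6 genes (Fcer2a and Pax5 with the lowest p), with sums of 1951 and 1457 in KLHL3-KI against 2492 and 2551 in WT libraries. Leaving out WT replicate 2 left 1 B cell marker past the threshold, leaving out WT replicate 1 left 3, and a fit with no variance trend left 2. T cell markers fell in 8 of 8 genes (Lef1 and Bcl11b with the lowest p), with sums of 263 and 245 in KLHL3-KI against 469 and 433 in WT libraries. Without WT replicate 1, 5 T cell markers passed. The median log2 fold changes of these lists were -0.67 and -0.78, beside -0.60 for Id3 and -0.44 for Smad7. The part of these cell types in the falls of Id3 and Smad7 was not tested. Ratios of the erythroid precursor markers ran from 4.33 to 9.15, beside 6.45 for Epor, 7.41 for Tfr2, 7.37 for Tal1 and 2.38 for Erfe. The part of erythroid cells in the rises of those 4 genes was not tested either.

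The cells that make the ligands were read from stromal, endothelial and macrophage markers. None of 9 tested stromal markers passed with limma, edgeR or DESeq2, and 1 (Pdgfrb, higher) had an unadjusted p under 0.05 with limma. Under the 3 scalings that shifted the median gene down 1 stromal marker passed as lower, and without KLHL3-KI replicate 1 there were 2. Their sums were 833 and 753 in KLHL3-KI against 849 and 862 in WT libraries, with Lum under the minimum and Pdgfrb and Tlx1 lowest in p. Tlx1 and Nkx2-5, which mark splenic stroma, were read in every library, at 10.4 to 18.5 and 2.82 to 4.63 in KLHL3-KI and 17.7 to 20.2 and 4.48 to 6.33 in WT spleen. Of 8 endothelial markers Ptprb fell (limma adjusted p = 0.0448) and Stab2 was next in p without passing, with sums of 770 and 668 in KLHL3-KI against 867 and 874 in WT libraries. The endothelial count was 0 with no filter, with no variance trend or without KLHL3-KI replicate 2, WT replicate 1 or WT replicate 2, was 3 without KLHL3-KI replicate 1, and was 5, all lower, under those 3 scalings. The log2 fold changes of all 8 endothelial markers had a median of -0.26 and ran from -0.37 to -0.13. Both KLHL3-KI values lay below both WT values in 7 of them, against 31.9% of all tested genes, and above in 0. Of 8 red pulp macrophage markers 3 rose: Cd163, Vcam1 and Mrc1, with a log2 fold change of 0.64 for Cd163 and 0.53 for Vcam1, beside 0.62 for Kitl. The other 5 did not pass, and the log2 fold changes of all 8 had a median of 0.23 and ran from 0.06 to 0.64. None of these macrophage calls was made with no variance trend or when WT replicate 2 was left out, and 2 were made without WT replicate 1 or KLHL3-KI replicate 2. Sums were 2957 and 3135 in KLHL3-KI against 2549 and 2244 in WT libraries. The part of these cells in the rise of Kitl was not tested.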

How the data were processed

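RNA of 4 spleen libraries was compared, 2 KLHL3-KI and 2 WT, grouped and numbered by their titles and matched to columns by library name. Per the submitters' processing notes, Trimmomatic 0.38, Bowtie2, RSEM 1.3.0 and edgeR were used with build GRCm39; the roles of the tools, the annotation and filters were not stated there. The deposited table holds a normalized signal for 23763 genes, which the authors call normalized counts. Within each library, dividing by the smallest value gave whole reads (100% of values, tolerance 0.001 reads), 9586677 and 10933023 in KLHL3-KI and 8535483 and 8975415 in WT libraries. Depth and n = 2 limit the precision.

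Names came from GENCODE M21 (GRCm38) by Ensembl identifier, and 23605 identifiers had one. Genes with a mean of at least 1 (16970) were compared on log2(value + 1) by limma 3.58.1 (variance trend, two-sided) in R 4.3.3. An exact test of 2 against 2 libraries cannot go below p = 0.333. Alternatives were other scalings, pseudocounts of 0.1 and 5, no filter or a mean of at least 5, other variance models, an adjusted p of 0.1, a replicate block, each library left out, and edgeR 4.0.16 and DESeq2 1.42.0 on the recovered reads.

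The members and the gene lists were chosen with earlier results of these data known. Named were all members, up to 4 genes with the lowest p of each pathway list and up to 2 of each marker list; Kit, Ptpn11, Mrc1, Nkx2-5 and the genes under the minimum or without a row were named beside that rule. 1 listed marker gene was left out of its list and is not reported here.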

Additional observations from a re-analysis of the deposited data

How the results depend on the processing

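Kitl, Id3 and Smad7 kept their direction in all 18 alternatives, and the log2 fold changes of Smad6, Id1 and Id2, which did not pass, changed sign in some. Alternatives that changed only the filter, variance model, adjusted p threshold or block left each log2 fold change as it was. Those alternatives could not test direction. Under 3 scalings more genes were called lower and fewer higher, apart from the members, where 1 was higher under each. After quantile normalization 4 members, Smad1 and Smad5 added, were lower, 3 pathway genes were higher and 2371 genes in all were lower, beside 2052 higher. With equal total reads 4 members were lower, 3 pathway genes higher and 24 lower, and 3128 genes in all lower, beside 1913 higher. With haemoglobin, immunoglobulin and mitochondrial genes removed 4 members were lower, 4 pathway genes higher and 23 lower, and 2971 genes in all lower, beside 2087 higher. The main counts were 1 higher and 2 lower members, 8 and 13 pathway genes, and 2583 and 1283 genes in all, and under these 3 scalings the median gene stood at -0.10, -0.16 and -0.14 on the log2 scale.

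With no filter 1 member was lower and 5 pathway genes higher. Without a variance trend 0 members were higher and 0 lower with limma (1 and 2 at an unadjusted p under 0.05). There, 4 pathway genes were higher and 2 lower, and 659 genes in all were lower. The edgeR fit was a setting of its own, not a fit without a trend, and gave 1 higher and 2 lower members. An adjusted p of 0.1 gave 1991 lower genes in all. DESeq2 gave 1 lower member, 7 lower pathway genes and 781 lower genes in all. With 1 library left out, 0 to 2 members were higher and 0 to 1 lower, 3 to 10 pathway genes were higher and 0 to 15 lower, and 1386 to 2903 genes in all were higher and 267 to 1627 lower; the lone library of a group was then assumed to vary like the pair. The cause was not tested for the other settings, while fewer samples enter the fits with 1 library left out. With the replicate number as a block 1 member was higher and 2 were lower, 9 and 15 pathway genes, and 2715 and 1415 genes in all. The labels do not say that the numbers pair libraries, and the deviations of same-numbered libraries correlated at -0.0325 across genes. Gdf15 and Smad6, at 6 to 26 reads a library, are limited by depth. So are Bmp7 and Sostdc1 among the called pathway genes.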
